A study of Mus musculus with 18 samples.

Results

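Genes of the mucosal barrier and of secretion, 10 in all, were followed across mouse uterus libraries: the membrane mucins Muc1, Muc4, Muc13 and Muc20, the mucin glycosyltransferases Gcnt1 and Gcnt3, the secreted or secretion-linked Fcgbp, Dmbt1 and Agr2, and the antibody transporter Pigr. They were taken by gene symbol, 10 of the 25791 genes in the deposited table, and each symbol matched 1 row. Messenger RNA was read from uterus cross sections of mice at 12 weeks of age on a mixed 129Sv and C57BL/6 background. Wild-type mice (WT) were compared with mice in which Tsc2, an inhibitor of the growth kinase complex mTORC1, is deleted in the uterus (KO). Each genotype was studied in 3 states: with its ovaries (intact), ovariectomized when 4 weeks old (ovx), and after the same surgery with a 0.5 mg pellet of 17β-estradiol, made to release over 90 days and carried for 8 weeks (E2). There were 3 libraries per group and 18 altogether. The labels name neither the promoter that drives the deletion nor the cells it reaches, do not give the cycle stage of intact mice, and do not say that each library came from its own animal, so p-values measure the spread between samples only.

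Mucus on wet epithelia is made of mucins, proteins whose repeats carry dense chains of O-linked sugars. Membrane mucins stay anchored on the luminal cell surface, where they lubricate and keep microbes and, in the uterus, the embryo from the cells beneath, while secreted partners cross-link the gel or bind microbes. In the rodent uterus Muc1 and Pigr are known as epithelial genes that respond to estradiol, and Muc1 is known to fall before the embryo attaches.

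Levels are FPKM, fragments scaled to library size and divided by transcript length. Changes are differences of log2(FPKM + 1) with their model standard error, tested with limma over 13898 genes and called at a Benjamini-Hochberg adjusted p under 0.05. Whether the libraries of groups overlap is given as a description only, since the share of all genes without overlap was not computed. All 10 genes met the filter of 1 FPKM in at least 3 libraries, but Dmbt1 met it through the WT E2 libraries alone, so that a higher WT E2 level of Dmbt1 was partly built in, in every comparison that holds WT E2: with other WT states, with KO, averaged over states and in the difference in response. Its values in these are given as a description. Summed FPKM ran from 216032 to 591668 per library, read totals were not given, and the depth behind the values is unknown. The targeted gene, Tsc2, differed by -0.18 on the log2 scale in KO against WT, averaged over the states (exact two-sided permutation p = 0.00275). Across all tested genes, 3 libraries, each the least like its own group, are spoken of here as standing apart, a choice made after the data were seen: KO E2 replicate 2 correlated better with WT E2 (mean Pearson's r 0.946) than with its own group (0.898), WT intact replicate 4 reached 0.891 with WT intact and 0.889 with WT E2, and KO ovx replicate 4 reached 0.921 with its own group. The choice was not sharp: WT intact replicates 1 and 2 correlated better with KO intact (0.927 and 0.937) than with WT intact (0.907 and 0.926), and KO E2 replicates 1 and 3 reached no more than 0.920 and 0.913 with their own group. By their lowest FPKM values the libraries were divided into 4 sets that look processed together, called batches here. The number 4 was set, not found from the data. Intact libraries were in batches 1 and 2 and ovariectomized libraries in batches 3 and 4.

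Promoter sequence was at hand from RefSeq (mouse build GRCm38.p6) for 8 of the 10 genes, in 11 windows of 300 bases. The 250 bases before the transcription start are shown for Fcgbp, Pigr, Muc1 and Muc13, which carried the clearest estradiol responses with a sequence available, and for Agr2, whose change with estradiol did not pass the test. Capitals mark matches to the motifs searched, on either strand, and the sequences run 5′ to 3′ along the gene.
Fcgbp (chr7:28070986-28071235, + strand): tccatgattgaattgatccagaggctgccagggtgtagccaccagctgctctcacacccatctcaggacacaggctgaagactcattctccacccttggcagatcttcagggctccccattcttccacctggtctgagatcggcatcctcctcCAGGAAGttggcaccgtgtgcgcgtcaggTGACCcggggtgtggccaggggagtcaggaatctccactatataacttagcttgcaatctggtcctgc
Pigr (chr1:130826434-130826683, + strand): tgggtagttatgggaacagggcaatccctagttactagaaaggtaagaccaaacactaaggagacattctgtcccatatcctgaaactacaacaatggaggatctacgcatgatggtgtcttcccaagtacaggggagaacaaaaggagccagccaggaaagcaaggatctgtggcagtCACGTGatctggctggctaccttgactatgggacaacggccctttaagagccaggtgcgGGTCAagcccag
Muc1 (chr3:89228806-89229055, + strand): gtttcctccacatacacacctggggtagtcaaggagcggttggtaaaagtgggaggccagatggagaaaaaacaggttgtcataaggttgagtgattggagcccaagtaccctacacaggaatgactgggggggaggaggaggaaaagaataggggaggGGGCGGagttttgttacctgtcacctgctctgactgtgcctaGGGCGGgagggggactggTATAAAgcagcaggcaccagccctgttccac
Muc13 (chr16:33793787-33794036, + strand): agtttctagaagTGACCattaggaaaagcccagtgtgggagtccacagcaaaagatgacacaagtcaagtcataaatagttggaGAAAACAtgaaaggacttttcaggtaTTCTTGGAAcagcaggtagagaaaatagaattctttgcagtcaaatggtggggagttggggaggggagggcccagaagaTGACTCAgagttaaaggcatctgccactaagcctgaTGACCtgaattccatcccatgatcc
Agr2 (chr12:35992675-35992924, + strand): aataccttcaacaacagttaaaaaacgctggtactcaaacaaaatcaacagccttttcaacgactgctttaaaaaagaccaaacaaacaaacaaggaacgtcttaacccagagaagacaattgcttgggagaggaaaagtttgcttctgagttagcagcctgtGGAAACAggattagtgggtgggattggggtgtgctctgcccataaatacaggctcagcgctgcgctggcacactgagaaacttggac

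The palindromic estrogen response element, searched as GGTCA and TGACC with any 3 bases between them, was in none of the 11 windows and in 0.07% of the 32851 windows of all genes. A single arm of it, GGTCA, lay in windows of 4 of the genes (Muc13, Muc20, Fcgbp and Pigr), and 40.5% of all windows held it. The Pigr window held the E-box CACGTG at position -71 from the start, a motif present in 7.15% of all windows, and the Muc13 window held the AP-1 motif TGANTCA at -61, present in 7.81%. Muc1 had GGGCGG, the letters of SP1 and KLF sites, at -91 and -49 (35.7% of all windows) and a TATA box at -31 (TATAAA, 13.6% of all windows). The forkhead motif TGTTTNC was found in 6 of the genes, Agr2 and Muc13 among them, against 20.5% of all windows. The ETS motif CAGGAAG was found in 3 genes, with Fcgbp at -97, against 13.3% of windows, and the STAT motif TTCNNNGAA in Muc13 at -140 and in Pigr, against 8.3%. In Pigr the ETS and STAT matches lay past the start and overlapped each other. No window held the steroid element, GNACA and TGTNC with any 3 bases between them, which 0.475% of all windows held. These are matches of letters in one short window per start and say nothing of distant sites.

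The first question was how estradiol and the ovaries set these genes in wild-type uterus. In WT, 7 of the 10 genes were called higher in E2 than in ovx, where 32.3% of all tested genes were called higher: the 4 membrane mucins, Fcgbp, Pigr and Dmbt1. Dmbt1 was tested only through its WT E2 level, so its call was partly built in. The median change of the 10 was 3.62, beside 0.24 for all tested genes. Scaling the libraries by median ratios moved the median of all genes by -0.14 in this comparison and left the 7 calls in place. With the ovaries present, 7 of 10 were again called higher than in ovx, where 29.9% of all genes were, but the genes were partly others, since Gcnt1 and Gcnt3 took the place of Muc13 and Dmbt1. These comparisons share the WT ovx libraries.

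**Figure D1:**
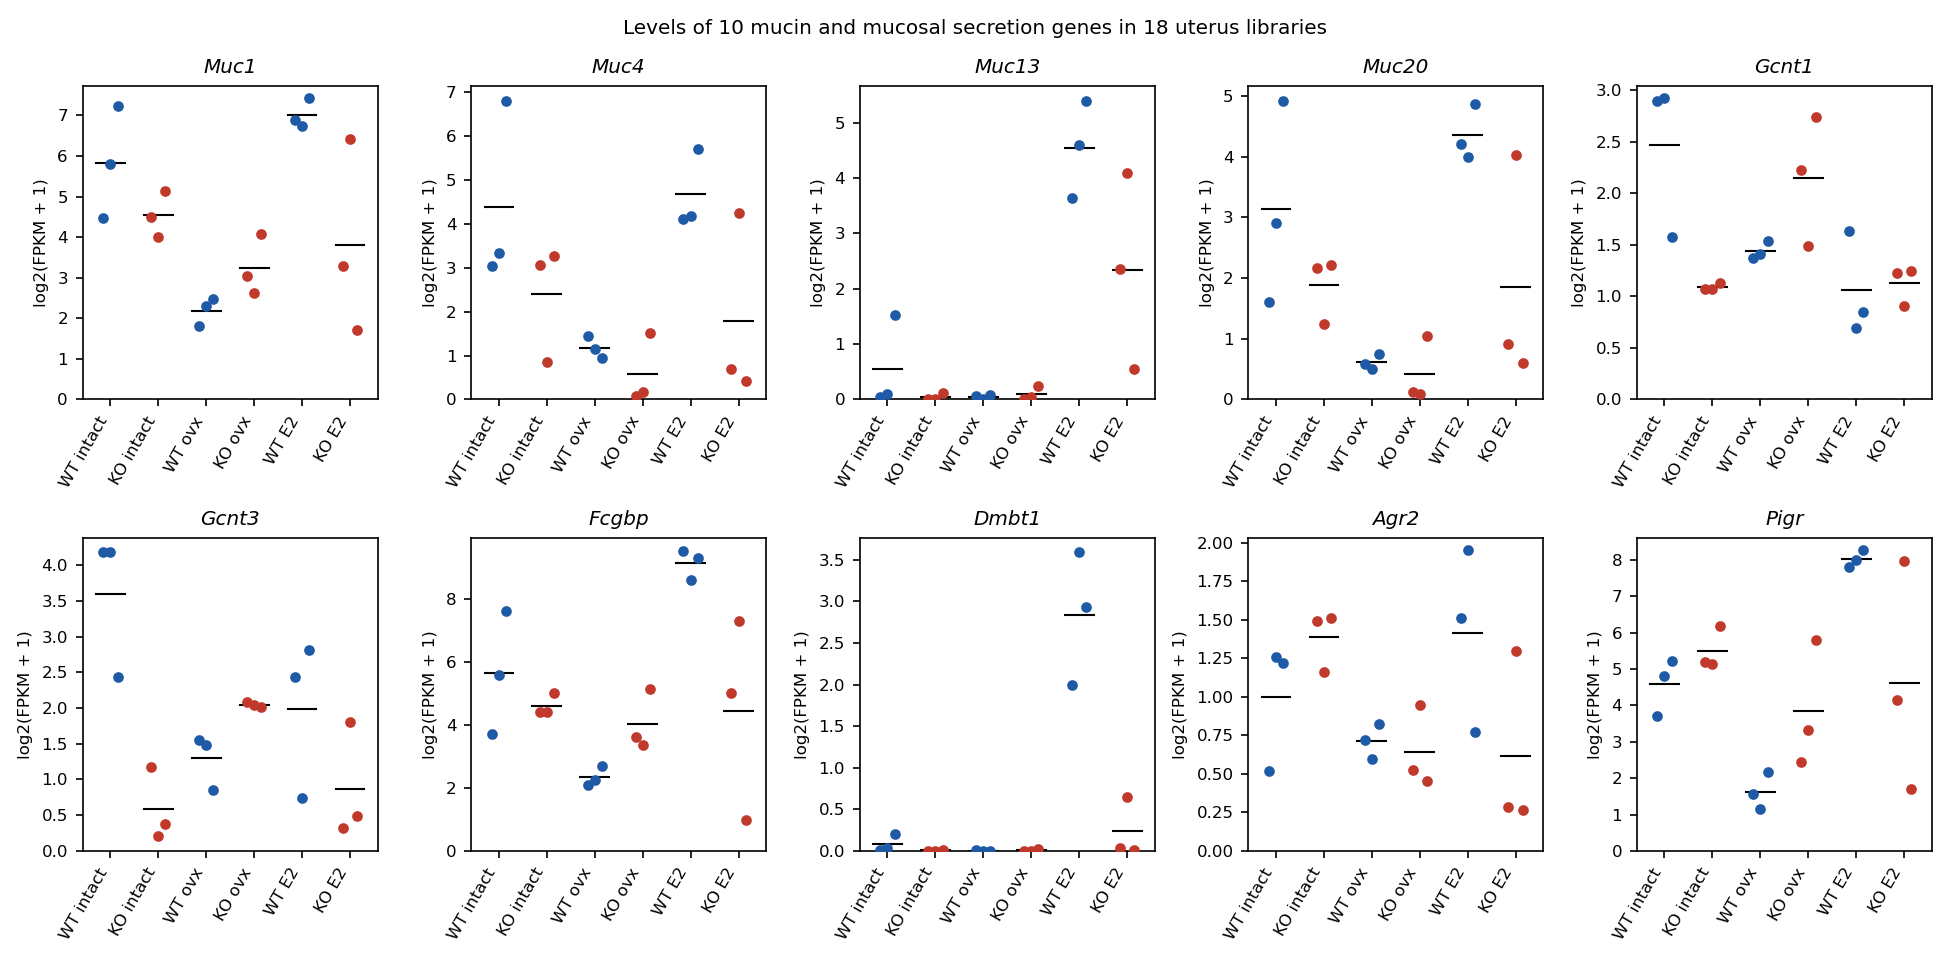
Level of each gene in every library, as log2(FPKM + 1), by group; blue points are WT, red points are KO and black bars are group means over 3 libraries. WT E2 libraries lie above WT ovx libraries for the membrane mucins, Fcgbp, Dmbt1 and Pigr, while in KO E2 the uppermost point of most panels is replicate 2.

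Muc1, the main membrane mucin of uterine luminal epithelium, was at 2.49, 3.94 and 4.56 FPKM in the WT ovx libraries, 21.4, 54.6 and 150 FPKM in WT intact (replicates 1, 2 and 4), and 117, 105 and 173 FPKM in WT E2 (replicates 1, 2 and 5). WT intact and WT E2 overlapped, and both lay wholly above WT ovx. The change from ovx was 4.82 ± 0.89 (SE) with E2 (adjusted p = 0.000684) and 3.65 ± 0.89 with ovaries (adjusted p = 0.00466). In KO, Muc1 was at 7.21, 5.20 and 15.8 FPKM in ovx and at 8.84, 83.9 and 2.28 FPKM in E2. Replicate 2 was thus near the WT E2 libraries, replicate 1 within the KO ovx range and replicate 3 beneath it. KO intact libraries were at 21.6, 15.1 and 34.0 FPKM, overlapping WT intact at its lower end.

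Muc4, a very large mucin that can also bind the receptor ERBB2, was at 0.913 to 1.72 FPKM in WT ovx and at 16.4, 17.3 and 51.8 FPKM in WT E2. The WT intact libraries were at 7.23, 9.03 and 111 FPKM, so its highest value in the series was WT intact replicate 4. Muc4 rose by 3.50 ± 1.05 with E2 in WT (adjusted p = 0.0133), and the call was lost without WT E2 replicate 5 (change 2.98). In KO ovx it was at 0.0548, 0.116 and 1.87 FPKM and in KO E2 at 0.624, 18.1 and 0.346 FPKM, with replicate 2 again beside the WT E2 libraries. KO intact libraries were at 7.41, 0.811 and 8.58 FPKM, and replicate 3 fell within the KO ovx range.

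Muc20, whose human form is reported to bind the receptor MET, was at 0.417 to 0.687 FPKM in WT ovx, at 2.02, 6.53 and 29.2 FPKM in WT intact, and at 17.3, 14.9 and 28.1 FPKM in WT E2. It rose by 3.74 ± 0.80 with E2 (adjusted p = 0.00188) and by 2.53 ± 0.80 with ovaries (adjusted p = 0.0196), with no overlap with WT ovx in either case. KO E2 libraries were at 0.889, 15.2 and 0.512 FPKM, replicate 2 again inside the WT E2 range. KO intact libraries were at 3.51, 1.36 and 3.66 FPKM, above the KO ovx libraries at 0.0877, 0.0616 and 1.05 FPKM. Muc4 and Muc20 are neighbours that overlap by 4973 bases on chromosome 16 in RefSeq (Muc4 chr16:32735886-32782391, Muc20 chr16:32777419-32797435, GRCm38.p6), and the deposited table gives both the same position. The ratio of Muc4 to Muc20 ran from 0.596 to 3.80 over the libraries, and since no source used here gives the use of strand in the authors' counting, some reads of one may be counted to the other.

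Muc13, a mucin best known from the gut, had another pattern. It was at 11.4, 23.2 and 41.0 FPKM in WT E2, while WT ovx libraries were at 0.0372, 0.0110 and 0.0594 FPKM and WT intact replicates 1 and 2 were at 0.0334 and 0.075 FPKM. WT intact replicate 4, at 1.86 FPKM, was the exception, and KO ovx and KO intact libraries ranged from a listed 0 to 0.181 FPKM. Muc13 rose by 4.49 ± 0.65 with E2 in WT (adjusted p = 0.000165), and its change with ovaries was 0.51 ± 0.65 (adjusted p = 0.549). It was the only one of the 10 called higher with E2 in KO, by 2.24 ± 0.65 (adjusted p = 0.0189), with 4.12, 16.0 and 0.472 FPKM in KO E2. That KO call was lost without KO E2 replicate 2, at a change of 1.36, and also without KO E2 replicate 1, KO ovx replicate 1 or KO ovx replicate 2.

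Fcgbp, which binds the Fc part of IgG and is secreted with mucus in the gut, had the highest FPKM of the 10 in WT E2. Its libraries were at 739, 390 and 634 FPKM there, a mean of 588 ± 179 (SD, n = 3), beside 3.29, 3.80 and 5.43 FPKM in WT ovx and 12.1, 47.4 and 196 FPKM in WT intact. The 3 groups did not overlap. The change with E2 was 6.80 ± 1.17 (adjusted p = 0.000445) and that with ovaries 3.30 ± 1.17 (adjusted p = 0.0329). KO E2 libraries, at 31.7, 155 and 0.980 FPKM, all lay under the WT E2 libraries, and replicate 3 was the lowest of the 18. Reads of Fcgbp may be divided with the adjacent paralog 9530053A07Rik on chromosome 7, whose level was 0.559 to 0.727 times that of Fcgbp in each library.

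Pigr, which carries polymeric IgA across the epithelium into secretions, was at 223, 254 and 305 FPKM in WT E2, at 1.96, 1.20 and 3.52 FPKM in WT ovx and at 12.0, 27.0 and 36.4 FPKM in WT intact. It rose by 6.39 ± 1.13 with E2 (adjusted p = 0.00054) and by 2.95 ± 1.13 with ovaries (adjusted p = 0.0455), and the 3 WT groups did not overlap. KO intact libraries were at 35.8, 34.0 and 72.2 FPKM, overlapping WT intact, a change of 0.93 ± 1.13 that did not pass the test (adjusted p = 0.711). KO ovx libraries, at 4.42, 9.06 and 54.2 FPKM, were each above every WT ovx library, a change of 2.22 ± 1.13 that did not pass either (adjusted p = 0.281).

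Dmbt1, a secreted scavenger receptor that binds bacteria and mucins, was near nothing outside E2. WT E2 libraries were at 2.98, 11.0 and 6.60 FPKM, and the highest library of the other WT groups was WT intact replicate 4, at 0.152 FPKM. KO E2 libraries were at 0.0285, 0.574 and 0.0095 FPKM, under each WT E2 library. The change with E2 in WT was 2.83 ± 0.28 (adjusted p = 2.06e-05), and that in KO was 0.23 ± 0.28 (adjusted p = 0.575). The WT change was partly built in, since the gene met the filter through WT E2 alone.

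Agr2, a disulfide isomerase of the endoplasmic reticulum that mucin assembly in the mouse gut requires, was low throughout, from 0.200 to 2.87 FPKM over the 18 libraries. WT E2 libraries were at 1.85, 2.87 and 0.712 FPKM and WT ovx libraries at 0.644, 0.514 and 0.769 FPKM, so the groups overlapped. Its change of 0.70 with E2 did not pass the test (adjusted p = 0.0757), though it passed without WT E2 replicate 5 (change 1.02). KO libraries were at 1.80, 1.24 and 1.86 FPKM in intact, 0.440, 0.923 and 0.367 FPKM in ovx, and 0.221, 1.47 and 0.200 FPKM in E2, so each KO intact library was above each KO ovx library.

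Gcnt1 and Gcnt3 add the core 2 branch to mucin sugars, and Gcnt3, the mucin-type enzyme, can also make core 4. Gcnt3 was at 17.1, 17.3 and 4.43 FPKM in WT intact, at 1.94, 1.79 and 0.804 FPKM in WT ovx, and at 4.38, 0.670 and 6.03 FPKM in WT E2. It rose with ovaries by 2.31 ± 0.55 (adjusted p = 0.0041), with no overlap, and its change with E2 did not pass. Gcnt1 was at 6.48, 6.65 and 1.98 FPKM in WT intact and at 1.59, 1.66 and 1.91 FPKM in WT ovx, a rise of 1.03 ± 0.35 (adjusted p = 0.027). Under E2 Gcnt1 was at 2.09, 0.616 and 0.804 FPKM in WT and 1.35, 0.876 and 1.37 FPKM in KO, which overlap, and Gcnt3 was at 0.247, 2.50 and 0.399 FPKM in KO. WT intact replicate 4, the highest library of its group for Muc1, Muc4, Muc13, Muc20, Fcgbp, Dmbt1 and Pigr, was the lowest of it for both Gcnt genes.

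The calls of intact against ovx in WT varied with single libraries: between 2 and 6 of the 7 remained past the threshold when any 1 of the 6 libraries was left out. The count was 2, Muc1 and Gcnt3, without WT ovx replicate 1, and again 2 without WT ovx replicate 2. Without WT intact replicate 4 the changes were 2.00 for Muc4, 1.64 for Muc20, 2.31 for Fcgbp and 2.62 for Pigr, and none of these passed. With all 3 libraries that stand apart left out, a choice made after the data were seen, the same changes had adjusted p of 0.0201, 0.00475, 0.0485 and 0.00516 in limma, and 7 genes were called, beside 27.8% of all genes. No batch held both intact and ovariectomized libraries, so batch and the presence of ovaries cannot be told apart. For E2 against ovx in WT, 7 genes were called whichever of the 6 libraries was left out, with Agr2 in the place of Muc4 without WT E2 replicate 5. Batch 3 held a single WT E2 library and batch 4 a single WT ovx library, so each comparison within a batch has an arm of 1 library, and the changes there were 5.30 and 4.50 for Muc1, 6.92 and 6.81 for Fcgbp, 6.38 and 6.76 for Pigr, 5.33 and 4.10 for Muc13, and 2.92 and 2.79 for Dmbt1. For Muc4 the changes were 4.53 and 3.00 and for Muc20 4.19 and 3.59. In batch 4 Muc1, Muc4 and Muc20 did not pass the test.

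The second question was whether loss of Tsc2 changed these levels in a given state. Under E2, 4 of the 10 genes were called lower in KO than in WT and none higher, where 3.58% of all tested genes were called lower. Fcgbp differed by -4.72 ± 1.17 (adjusted p = 0.022), Muc1 by -3.21 ± 0.89 (adjusted p = 0.036), Dmbt1 by -2.60 ± 0.28 (adjusted p = 0.000224) and Muc13 by -2.21 ± 0.65 (adjusted p = 0.0467). The Dmbt1 difference was partly built in, since that gene met the filter through WT E2 alone. For Fcgbp, Muc1 and Dmbt1 no KO E2 library reached the WT E2 range, whereas for Muc13 KO E2 replicate 2 lay inside it. Pigr (-3.41 ± 1.13, adjusted p = 0.0784), Muc4 (-2.88 ± 1.05, adjusted p = 0.107) and Muc20 (-2.51 ± 0.80, adjusted p = 0.0676) did not pass, each with KO E2 replicate 2 beside the WT libraries. The median of the 10 changes was -2.55, beside -0.05 for all genes.

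**Figure D2:**
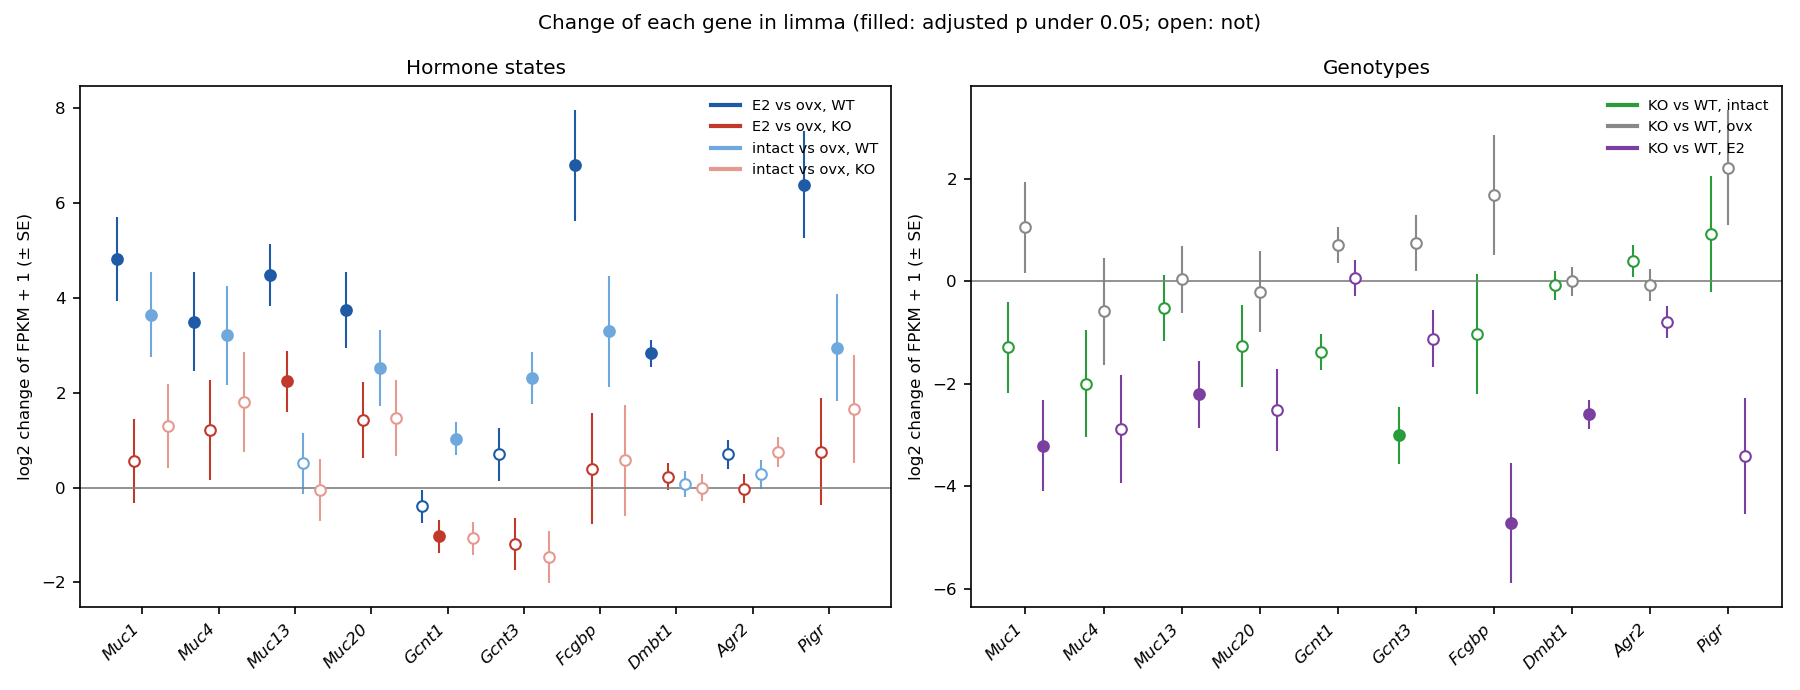
Change of each gene on the log2(FPKM + 1) scale with its SE from limma, for hormone states within genotype at left and KO against WT at right; filled points have an adjusted p under 0.05. In WT the E2 changes of Muc1, Muc13, Fcgbp and Pigr lie between 4.49 and 6.80, and in KO the E2 change of Fcgbp is 0.40.

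The number of calls changed whichever of the 6 libraries was left out, from 1 to 8. Without KO E2 replicate 2, 8 of the 10 genes were called lower in KO under E2, beside 6.19% of all genes: Muc1 (-4.51, adjusted p = 0.000376), Muc4 (-4.12, 0.00842), Muc13 (-3.08, 0.00108), Muc20 (-3.59, 0.00182), Fcgbp (-6.14, 0.00107), Dmbt1 (-2.81, 1.82e-05), Agr2 (-1.14, 0.0158) and Pigr (-5.10, 0.000792), with the limma adjusted p second in each pair. With all 3 libraries that stand apart left out, Gcnt3 was called lower as well (-1.59, adjusted p = 0.0297), which makes 9, beside 9.22% of all genes. Without KO E2 replicate 3, the library with the lowest Fcgbp, only Dmbt1 was called (-2.49, adjusted p = 0.00143), and Fcgbp stood at -2.99 and Muc1 at -2.17. Without KO E2 replicate 1, Dmbt1 was again the only one called (-2.50), with Fcgbp at -5.01 (adjusted p = 0.0556). The Dmbt1 change ran from -3.02 to -2.22 over the libraries left out, for a gene that entered the test through its WT E2 level. Muc1 missed the threshold also without WT E2 replicate 1 (-3.28), 2 (-3.36) or 5 (adjusted p = 0.129), Muc13 without WT E2 replicate 2 (-2.18) or 5 (-1.78), and Fcgbp without WT E2 replicate 1 (-4.53) or 5 (-4.64).

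**Figure D3:**
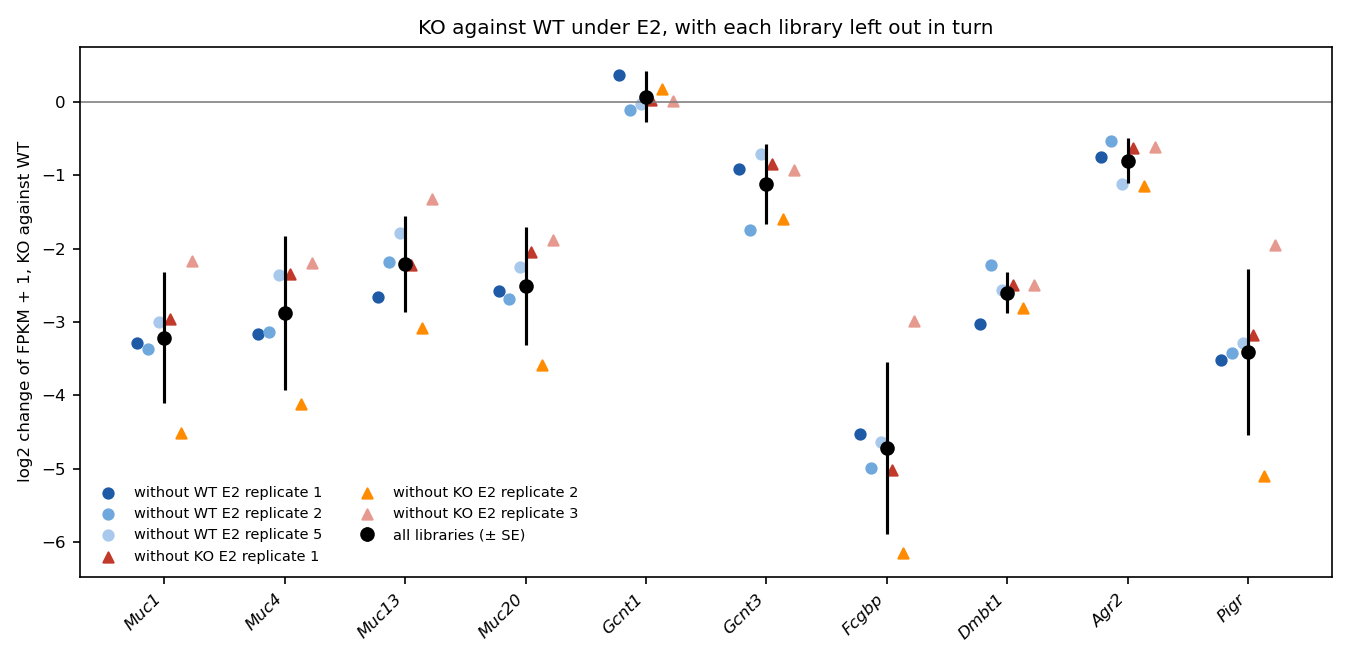
Change of each gene in KO against WT under E2 on the log2(FPKM + 1) scale, with all 6 libraries (black, ± SE) and with each library left out in turn (colours). Fcgbp is at -4.72 with all libraries, -6.14 without KO E2 replicate 2 and -2.99 without KO E2 replicate 3.

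Within batches the differences of the 4 called genes had the same sign and unequal size. In batch 3, which held only WT E2 replicate 5 and KO E2 replicate 3, 1 library for each genotype, Fcgbp differed by -8.33, Muc1 by -5.73, Muc13 by -4.84 and Dmbt1 by -2.91. In batch 4, with replicates 1 and 2 of both groups, the values were -2.91 for Fcgbp, -1.95 for Muc1, -0.89 for Muc13 and -2.44 for Dmbt1. None of the batch 4 differences passed the test, Dmbt1 coming nearest at an adjusted p of 0.0585 with the spread pooled over all 18 libraries. With only the 6 E2 libraries in the model, no gene of the table was called.

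In intact uteri, 1 gene of the 10 was called lower in KO, where 0.993% of all genes were. Gcnt3 was at 1.27, 0.159 and 0.295 FPKM in KO intact, all under the WT intact libraries, and differed by -3.01 ± 0.55 (adjusted p = 0.0118). The call was lost without KO intact replicate 3 (-2.82, adjusted p = 0.0784). Within batch 1 the difference was -2.53 and did not pass the test, and in batch 2, where 1 library stands against 1, it was -3.98. Smooth muscle markers summed to 134, 455 and 73.1 FPKM in WT intact and to 1691, 1536 and 487 FPKM in KO intact, without overlap. The median change of these 8 markers in KO against WT intact was 2.56, beside -0.04 for all genes, and only Des was called. In WT intact against WT ovx the median of the markers was -2.20, beside 0.21 for all genes. Their part in the Gcnt3 difference was not tested. Gcnt1 was at 1.10, 1.10 and 1.19 FPKM in KO intact, also without overlap, at a change of -1.38 ± 0.35 that missed the threshold (adjusted p = 0.0539) and passed it without WT intact replicate 4 (-1.83). The membrane mucins Muc1 (-1.29), Muc20 (-1.26) and Muc13 (-0.52) had overlapping libraries and no call, as had Muc4 (adjusted p = 0.333).

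In ovx uteri none of the 10 genes was called in limma in either direction, where 5.42% of all genes were, and none had an unadjusted p under 0.05. The share of all genes under that unadjusted cutoff was not computed. Gcnt3, at 3.25, 3.12 and 3.04 FPKM in KO ovx, lay above the WT ovx libraries, as did Muc1, Fcgbp and Pigr. Their changes were 0.75, 1.05, 1.69 and 2.22, each within about 2 of its standard errors. How many of all genes lay wholly above WT ovx in KO ovx was not computed. Averaged over the 3 states, Gcnt3 (-1.13 ± 0.32, adjusted p = 0.0492) and Dmbt1 (-0.89 ± 0.16, adjusted p = 0.00657) were called lower in KO, beside 1.73% of all genes, Dmbt1 being the gene tested through WT E2 alone. The Gcnt3 call was lost when any 1 of 15 libraries was left out, with changes from -1.23 to -0.99. Without the 3 libraries that stand apart, 7 genes were called lower in this average: Muc1, Muc4, Muc13, Muc20, Gcnt3, Fcgbp and Dmbt1, from -1.99 for Muc4 to -0.94 for Dmbt1, beside 6.25% of all genes.

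The third question was whether the genotypes responded differently, which was tested as the KO response minus the WT response. For E2 against ovx, 4 of the 10 genes had a lower response in KO, beside 6.95% of all genes: Fcgbp (-6.40 ± 1.66, adjusted p = 0.0263), Pigr (-5.63 ± 1.60, adjusted p = 0.0369), Muc1 (-4.27 ± 1.26, adjusted p = 0.0414) and Dmbt1 (-2.60 ± 0.40, adjusted p = 0.00319), the last in part through the filter. The calls were fragile: that of Muc1 was lost without any 1 of 10 of the 12 libraries, that of Pigr without any 1 of 9 and that of Fcgbp without any 1 of 5, with adjusted p up to 0.108, 0.101 and 0.0686. All kept their sign, Muc1 from -5.57 to -3.22, Pigr from -7.32 to -4.18 and Fcgbp from -7.83 to -4.68. In KO itself the E2 changes were 0.40 ± 1.17 for Fcgbp, 0.76 ± 1.13 for Pigr and 0.56 ± 0.89 for Muc1, and without the 3 libraries that stand apart they were -0.48, 0.04 and -0.33, none of them called. In the KO comparison of E2 with ovx, 1 gene was called higher (Muc13) and 1 lower (Gcnt1, -1.03 ± 0.35, adjusted p = 0.0413), where 27.1% of all genes were called in either direction. The Gcnt1 call was lost without any 1 of 5 of the 6 libraries, KO ovx replicate 2 being the exception, with changes from -1.36 to -0.73, and also without the 3 libraries that stand apart (-0.62, adjusted p = 0.0912). Without KO E2 replicate 2, 7 genes had a called difference in response, beside 8.96% of all genes, with Fcgbp at -7.83, Pigr at -7.32 and Muc1 at -5.57. Within batch 3 the differences were -9.97 for Fcgbp, -8.54 for Pigr, -6.84 for Muc1 and -2.91 for Dmbt1, with 1 library in each E2 arm, and batch 4 held no KO ovx library.

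For intact against ovx, the difference in response was called for both Gcnt genes, beside 3.60% of all genes called lower. Gcnt3 differed by -3.76 ± 0.78 (adjusted p = 0.0181) and Gcnt1 by -2.09 ± 0.50 (adjusted p = 0.0301). In WT both genes were higher with ovaries, and in KO every intact library was under every ovx library: KO ovx libraries of Gcnt1 were at 3.70, 1.81 and 5.70 FPKM. The KO changes of -1.46 for Gcnt3 (adjusted p = 0.0857) and -1.07 for Gcnt1 (adjusted p = 0.0513) did not pass on their own. In the KO comparison of intact with ovx, limma called none of the 10 genes, where 15.9% of all genes were called in either direction. The unadjusted limma p was under 0.05 for Gcnt1, Gcnt3 and Agr2, a cutoff for which the share of all genes was not computed. Without the 3 libraries that stand apart, 6 genes were called in that KO comparison, beside 28.1% of all genes: Muc20 (1.77, adjusted p = 0.0049), Pigr (2.62, 0.0081), Muc4 (2.28, 0.0163) and Muc1 (1.71, 0.0219) were higher with ovaries, and Gcnt1 (-0.77, 0.0378) and Gcnt3 (-1.47, 0.0378) lower, with the limma adjusted p second. KO ovx replicate 4, one of the 3, had the highest KO ovx level of all of these but Gcnt3. The Gcnt1 difference in response missed the threshold without any 1 of 8 libraries, between -2.15 and -1.80, and that of Gcnt3 without KO intact replicate 3 (-3.58) or WT ovx replicate 1 (-3.89).

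Since most of these genes are known from epithelial cells, 18 markers of uterine epithelium (such as Epcam, Cdh1 and Krt8) were summed in each library. The sum was 118 to 231 FPKM in WT ovx, 701 to 2041 in WT intact and 1108 to 1817 in WT E2, and 324 to 1019 in KO ovx, 328 to 616 in KO intact and 163, 1116 and 464 in KO E2. None of the 18 was listed at 0 throughout a group. From ovx to E2 in WT, and from WT to KO under E2, the marker sum moved the same way as the membrane mucins. Of the 18 markers, 13 were called higher in E2 than in ovx in WT (median change 2.40), beside 32.3% of all genes. Under E2, 5 were called lower in KO than in WT (median -1.96), beside 3.58%. A lower E2 response in KO was called for 12, beside 6.95%. With E2 in KO, 0 were called higher and 4 lower, where 27.1% of all genes were called in either direction. The sum was higher in KO ovx than in WT ovx without overlap. There Muc1, Muc4, Muc13 and Muc20 changed by 1.05, -0.59, 0.04 and -0.20, with none called. In RNA of whole tissue, fewer epithelial cells and less RNA per cell cannot be told apart. The part of epithelial content in the changes of the 10 genes was not tested.

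**Figure D4:**
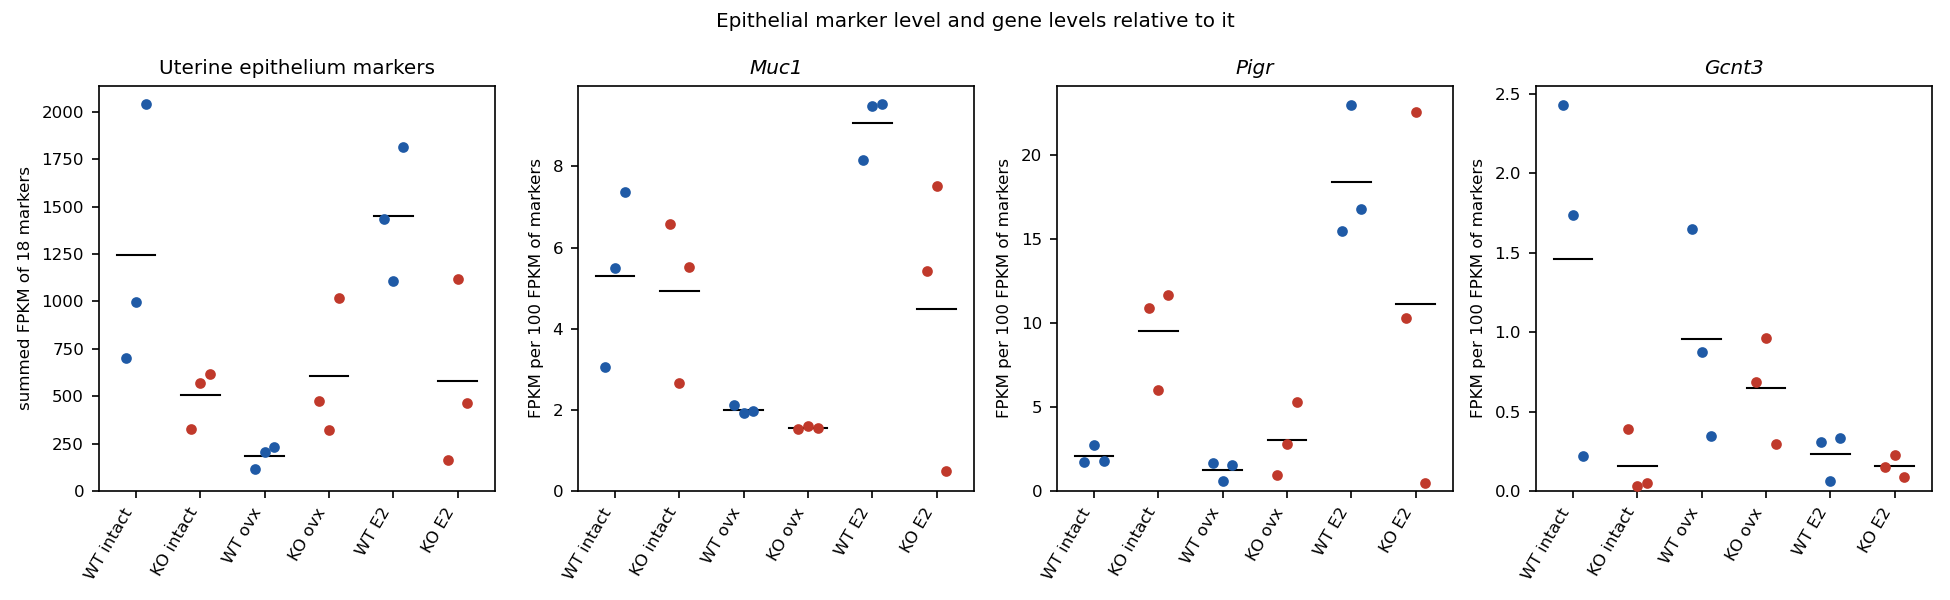
Summed FPKM of 18 uterine epithelium markers by library (left), and FPKM of Muc1, Pigr and Gcnt3 per 100 FPKM of those markers; blue is WT, red is KO, bars are means over 3 libraries. Pigr per marker is 15.5 to 23.0 in WT E2 and 0.587 to 1.66 in WT ovx.

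Per 100 FPKM of these markers, Fcgbp was at 34.9 to 51.6 in WT E2 and at 1.85 to 2.79 in WT ovx. Pigr was at 15.5 to 23.0 in WT E2 and at 0.587 to 1.66 in WT ovx, and Muc1 at 8.15 to 9.53 and at 1.92 to 2.11. For these 3 genes, and for Muc13, Muc20 and Dmbt1, WT E2 lay wholly above WT ovx after division by the markers. How many of all genes separate in this way was not computed, so separations per marker are given as a description only. Muc4 overlapped, at 1.14 to 2.85 in WT E2 and 0.395 to 1.46 in WT ovx. Gcnt1 lay wholly lower in WT E2, at 0.0443 to 0.146 against 0.809 to 1.34, as did Gcnt3, at 0.0605 to 0.332 against 0.348 to 1.65. Before division the libraries of these groups overlapped for both Gcnt genes. Over the 18 libraries Gcnt1 did not follow Muc1 (Pearson's r -0.11), so its level per marker may not be a level per epithelial cell. Agr2 had 0.0392 to 0.259 in WT E2 and 0.251 to 0.546 in WT ovx, which overlap. For KO against WT under E2, Fcgbp per marker was at 0.211 to 19.5 in KO, under every WT E2 library, Muc1 at 0.491 to 7.51, also under each, and Dmbt1 at 0.00205 to 0.0514, also under each. Pigr, at 0.481 to 22.6, overlapped WT, as did Muc4, Muc20, both Gcnt genes and Agr2. Muc13 per marker was at 0.102 to 2.53 in KO E2 and 0.794 to 2.26 in WT E2, so that this called gene overlapped as well. Gcnt3 per marker was at 0.217, 1.74 and 2.43 in WT intact and at 0.028 to 0.388 in KO intact, which overlapped. Pigr per marker was higher in KO intact, at 5.99 to 11.7, than in WT intact, at 1.71 to 2.71, without overlap, though Pigr itself did not differ by the test.

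Markers of other cells moved too. Summed neutrophil markers were at 185, 488 and 720 FPKM in WT E2 and at 14490, 1838 and 1428 FPKM in KO E2. The median change of these 9 markers in KO against WT under E2 was 3.27, beside -0.05 for all genes. Camp, Mmp8 and Cxcr2 among them met the filter through KO libraries alone, so their higher KO E2 levels were partly built in. Stroma markers summed to 157 to 232 FPKM in WT E2 and to 1149, 208 and 1079 FPKM in KO E2, so that KO E2 replicate 2, the library with WT-like mucin levels, also had a WT-like stroma sum. The epithelial marker sum of this library, 1116 FPKM, lay within the WT E2 range as well, with KO E2 replicates 1 and 3 at 163 and 464 FPKM. The part of neutrophil, stroma and epithelial content in the lower mucin levels of KO E2 was not tested. Adipocyte markers summed to between 2.73 and 47.0 FPKM in WT E2 and to between 4.92 and 2382 FPKM in KO E2. In KO E2 replicates 1, 2 and 3, Cfd was at 257, 0.104 and 1212 FPKM and Adipoq at 16.4, 0.0556 and 97.2 FPKM. Replicate 2, with WT-like mucin levels, was thus the lowest for both. In WT E2 the highest Cfd was 28.6 FPKM, in replicate 2, and KO ovx replicate 4 had 47.6 FPKM. The part of adipocyte content in the mucin levels was not tested. Of 9 listed markers of squamous epithelium, the 6 tested, all keratins, were called higher with E2 in WT, where 32.3% of all genes were. The median change of these keratins was 3.31, and their median difference between KO and WT under E2 was -0.60. Trp63, not tested, was at 0.0932, 0.15 and 0.128 FPKM in WT ovx and at 0.00986, 0.0203 and 0.0179 FPKM in WT E2. Ivl and Dsg3, also not tested, reached no more than 0.0394 and 0.988 FPKM in WT E2. KO E2 replicate 3 had Trp63 at 5.61 and Ivl at 23.3 FPKM.

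The other genes of the mucus pathway came from lists written with earlier results of these data known. Of 12 other mucins in the table, 3 could be tested, and the gel-forming Muc2, Muc5b and Muc6 had group means of at most 0.0717 FPKM. Ovgp1, the oviduct glycoprotein also classed as a mucin, rose by 3.33 ± 1.00 with E2 in WT and differed by -2.08 ± 0.58 in KO averaged over the states. Its group mean was 21.3 ± 21.3 FPKM (SD, n = 3) in WT intact and 0.316 ± 0.206 in KO intact, and 60.7 ± 85.3 in WT E2 and 2.10 ± 0.792 in KO E2, so the WT groups were very uneven.

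Of 18 tested enzymes of mucin O-glycosylation other than Gcnt1 and Gcnt3, 10 were called higher and none lower with E2 in WT, where 32.3% of all genes were called higher. The 4 with the largest change were the fucosyltransferases Fut2 (3.63) and Fut1 (1.71), the core 1 extending enzyme B3gnt3 (2.41), and Galnt3 (2.31), which starts the chains. With ovaries in WT, 11 were called higher, beside 29.9% of all genes. In KO 2 were called higher with E2, where 15.9% of all genes were, and 1 lower, and 1 was called higher with ovaries, where 7.14% of all genes were. Under E2, KO was lower for the sialyltransferase St6galnac2 (-1.13), Fut1 (-1.08) and C1galt1c1 (-0.90), the chaperone of core 1 synthesis, and higher for Galnt6 (1.33). Galnt6 reached 1 FPKM only in KO E2 (3.8 and 3.94 FPKM) and WT intact (1.19 FPKM), so its higher KO E2 level was partly built in. In intact uteri Galnt12, another starter enzyme, was lower in KO (-2.08), and the response to ovaries was lower in KO for Gcnt2 (-1.95), which makes I-antigen branches and belongs to the same family as Gcnt1 and Gcnt3.

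Of 11 tested goblet and mucus secretion genes, 7 were called higher with E2 in WT and 7 in KO, again beside 32.3% and 15.9% of all genes, which hold also for the E2 counts of the lists that follow. In WT these included the anion exchanger Slc26a4 (4.38) and Clca4 (4.11), Clca2 (3.36) and Clca1 (3.27). The Clca genes named are near copies whose reads may be shared, so their calls may not be separate. In KO the same 4 genes changed by 2.54, 2.55, 2.52 and 2.48. Clca3, of the same list, was not called with E2 in either genotype. It was called higher with ovaries in WT (4.20 ± 1.40, adjusted p = 0.0244 in limma). Its group mean was 316 ± 326 FPKM (SD, n = 3) in WT intact and 5.92 ± 3.72 in WT ovx. The secretory transcription factor Spdef was lower in KO under E2 (-1.39), and Retnlb, a goblet cell antimicrobial protein, was higher (2.96). Of 20 folding genes of the endoplasmic reticulum, where Agr2 acts, 14 were called higher with E2 in WT, led by Sdf2l1 (2.29), Manf (2.16), Pdia3 (1.89) and Pdia6 (1.70). In KO 6 of the 20 were called higher with E2, and the median difference between KO and WT under E2 was -0.01.

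For the antibody path that Pigr serves, 5 of 7 tested genes were called higher with E2 in KO and 1 in WT. Igj, the chain that joins IgA into the polymers Pigr carries, rose by 4.50 ± 1.04 in KO, from a mean of 6.18 ± 3.77 FPKM (SD, n = 3) in KO ovx to 257 ± 325 in KO E2. Its E2 mean in WT was 45.4 ± 45.2 FPKM, and the difference between the genotypes in its response did not pass the test. Pigr in the same KO E2 libraries was at 16.8, 252 and 2.23 FPKM, with its lowest value in replicate 3, where plasma cell markers summed to 686 FPKM against 68.3 and 75.9 FPKM in the others. Of 16 innate defence genes, 10 were called higher with E2 in WT, such as Lcn2 (8.67), Pglyrp1 (8.04) and Cfb (6.90). In KO 11 were called higher and Wfdc2 lower (-2.72), and under E2 Camp (5.11) and Slpi (4.35) were higher in KO than in WT. Camp is also one of the neutrophil markers above. It reached no more than 0.844 FPKM in any WT library and met the filter through KO alone, so its higher KO E2 level was partly built in.

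Across the 18 libraries, which share groups and batches, the genes fell into sets of like pattern, given here as a description of log2(FPKM + 1). Pearson's r was 0.96 for Muc1 with Muc20, 0.96 for Muc4 with Muc20, 0.95 for Muc1 with Fcgbp and 0.92 for Fcgbp with Pigr. Gcnt1 and Gcnt3 correlated at 0.70 with each other, and Gcnt1 at -0.48 with Muc13. Among other tested genes, Muc1 was most like Tspan1 (0.98), Sftpd (0.96) and Ttc39a (0.96), and Muc20 most like Unc5cl (0.98). Muc13 was most like Slc26a4 (0.99), Lpo (0.98) and Adm2 (0.97), all low outside E2 as Muc13 was: Lpo averaged 46.1 FPKM in WT E2, 8.37 FPKM in KO E2 and no more than 0.145 FPKM in the other groups. Dmbt1 was most like Atp13a5 (0.97), Scgb1c1 (0.96) and Otoa (0.96), and Gcnt1 most like Jakmip1 (0.94). Pigr was most like Tmsb15b2 (0.96) and Gcnt3 most like AI848100 (0.89). Agr2 had the weakest match, BC048679 at 0.76. Slc26a4 is a chloride and bicarbonate exchanger, Lpo a peroxidase of secretions, and Sftpd a collectin of mucosal fluids.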

How the data were processed

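Messenger RNA libraries were made from uteri with a stranded TruSeq kit and read from a single end, per the labels' protocols. The authors deposited FPKM values per gene and library, computed with Cufflinks 2.0.2 and Cuffdiff, per the submitters' processing notes. Aligner, annotation, genome build and any scaling between libraries are not given in the sources used here, and FPKM holds no read counts. No counting interval could be given. Table positions are on an unnamed build, so RefSeq GRCm38.p6 positions are printed.

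Values were taken as log2(FPKM + 1), a scale that understates the change of low genes. Genes at 1 FPKM or more in at least 3 of the 18 libraries were kept (13898). A mean per group was fitted in limma 3.58.1 (R 4.3.3) to all libraries, with eBayes and its mean-variance trend. Tests were two-sided, with Benjamini-Hochberg adjustment over all tested genes in each of 10 comparisons, at 0.05. The fit was tested on simulated data. Tsc2 was tested by exact permutation of genotype within states (8000 arrangements). The members, gene lists and named genes (all 10 members, the 3 most correlated genes of each, up to 4 called genes per list) were chosen with earlier results of these data known. Motifs, the levels per 100 FPKM of epithelial markers, the analysis without 3 libraries that stand apart and the values within batches were chosen after the data were seen. Batches came from the step ratios of values up to 0.05 FPKM, matched within 0.02 log2; the share of matching genes had a median of 7.33% within a batch (3.56% to 19.6%) and 2.91% between batches with ovaries alike (1.78% to 3.98%), so the ranges overlap and the batches are inferred. The number of batches was set at 4 for the grouping, and the labels name no batch. A WT intact title with 2 numbers was read as replicate 4. Alternatives were another pseudocount, filter, scaling, trend setting or sample set, a replicate block, a batch term and each library left out in turn. Figures were drawn in Python 3.11.15.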

Additional observations from a re-analysis of the deposited data

Results flagged for a closer look

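For 6 genes the genotypes differed in their response by a test of the difference itself in limma. The response to E2 against ovx was lower in KO for Fcgbp (-6.40), Pigr (-5.63), Muc1 (-4.27) and Dmbt1 (-2.60), and the response to ovaries was lower in KO for Gcnt3 (-3.76) and Gcnt1 (-2.09). Leaving out 1 library ended the E2 call of Muc1 in 10 of 12 cases, of Pigr in 9 and of Fcgbp in 5, and the count of genes called ran from 1 to 7. Dmbt1 was tested only through its WT E2 level, so its difference is partly built in. For ovaries the Gcnt1 call was lost in 8 of 12 cases. In the E2 comparison every WT E2 library was above every WT ovx library for these 4 genes, while KO E2 libraries of Fcgbp ran from 0.980 to 155 FPKM and overlapped KO ovx. For both Gcnt genes WT intact libraries were above WT ovx libraries and KO intact libraries under KO ovx libraries for all 3 libraries of each group. The share of all genes with such separations was not computed.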

How the results depend on the processing

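No call changed its direction. Single genes were followed under alternatives only in comparisons where their main adjusted p in limma was under 0.1. Of 417 such values, 332 stayed on their side of the threshold, 70 lost their call and 15 gained one. Calls gained by genes further from the threshold are not in these numbers. Of the 10 genes, E2 against ovx in WT gave 7 calls, 8 with the replicate block or without the 3 libraries that stand apart, 6 with a stricter filter and 4 within batch 4. KO against WT in ovx gave 0 calls throughout. KO against WT under E2 gave 4 calls, 2 with no filter, a stricter filter or a batch term, 1 with the replicate block, 0 with only the groups compared or within batch 4, and 9 without the 3 libraries that stand apart. The difference in the E2 response gave 4 calls, 2 with no filter, only the groups compared or within batch 3, 1 with the block and 8 without the 3 libraries. KO against WT in intact uteri gave 1 call, 2 with median-ratio scaling, quantile normalization or without the 3 libraries, and 0 with only the groups compared or within batch 1 or 2. The mean over states gave 2 calls, 1 with a pseudocount of 0.1 or 5, no filter, no trend, the block or a batch term, 0 with a stricter filter and 7 without the 3 libraries. Intact against ovx in WT gave 7 calls, and 3 with the block. A batch term could not be fitted to intact against ovx, since no batch held both. The difference in the response to ovaries gave 2 calls, and 1 with the block or a batch term. In KO, E2 against ovx gave 2 calls, 1 with no filter, a stricter filter or the block, and 0 with a pseudocount of 5, a batch term, only the groups compared or within batch 3. In KO, intact against ovx gave 0 calls, 1 with median-ratio scaling, quantile normalization or the block, 2 with a pseudocount of 0.1, 3 with only the groups compared and 6 without the 3 libraries. The causes were not tested, except that single groups and batches leave fewer libraries.

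Leaving out 1 library gave ranges of 0 to 2 calls (KO against WT, intact), 0 to 0 (ovx), 1 to 8 (E2) and 1 to 7 (mean of states), 7 to 7 (E2 against ovx, WT), 0 to 1 (KO), 2 to 6 (intact against ovx, WT), 0 to 1 (KO), 1 to 7 (difference in the E2 response) and 0 to 2 (difference in the response to ovaries), and -0.21 to -0.15 for Tsc2. Of 6 same-numbered pairs of the genotypes, 3 had deviations that correlated over 0.1, with r from -0.03 to 0.34. Pairing was taken as shown only if every pair did, so the block was not made the main model, and calls lost under the replicate block are given as counts only. Depth is unknown, and for Muc13 and Dmbt1 outside E2, levels near 0 limit any comparison.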
